A study of Drosophila melanogaster with 2 samples.

Results

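The strong peaks described here are the 320 of 5012 thresholded CG6813 ChIP-seq peaks of Drosophila melanogaster embryos that were selected on their measured signal, with a pooled signal of 700 or more in the authors' deposited list. The other 4692 thresholded peaks, with signals from 146 to 697, are called weaker peaks and served for comparison. Chromatin came from whole embryos of 0 to 24 h, pooled male and female, of 1 transgenic line that stably expressed CG6813 with GFP at its C-terminus, and the tagged protein was precipitated with an anti-GFP antibody after sonication to 200 to 800 bp. There was 1 group of 2 biological replicates, numbered 2 and 3 in the labels, and replicate 1 and the control were not analysed here. Whole embryos of mixed stages average over all tissues, so a peak cannot be assigned to a cell type.

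CG6813 belongs to the family of Drosophila C2H2 zinc finger proteins with a zinc finger-associated domain (ZAD) at the N-terminus. In this family the ZAD is known as a dimerisation domain and the zinc fingers as the DNA-binding part, and several relatives are known to act at promoters and at chromatin insulators. In ChIP-seq, DNA bound to the precipitated protein is sequenced, and a peak is an interval with more fragments than the control. Its summit, the position of highest signal, is the best single estimate of where the protein lay.

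The windows below show the DNA under some of the strongest peaks, because sequence around the summit was, besides location, a feature compared with weaker peaks below. Each is the plus strand of the dm6 assembly (RefSeq copy), from 100 bp left to 100 bp right of the summit, for the 3 strongest promoter peaks, 3 intronic peaks and 2 intergenic peaks whose window overlaps no annotated untranslated region, with 1 chromosome arm left out. The windows do not represent all strong peaks: Ugalt, px and CG14100, promoter peaks of rank 1, 4 and 6 by pooled signal that each hold a 7-mer of the CTACGCC group, are not among them. Capitals mark the 7-mers (7-base sequences, read on either strand) that passed within 100 bp of the summit, against weaker peaks or against the left flank, and 7-mers that passed only in wider windows are not marked.
lncRNA:CR31840 (promoter, noncoding exon, chr2L:14023974-14024174): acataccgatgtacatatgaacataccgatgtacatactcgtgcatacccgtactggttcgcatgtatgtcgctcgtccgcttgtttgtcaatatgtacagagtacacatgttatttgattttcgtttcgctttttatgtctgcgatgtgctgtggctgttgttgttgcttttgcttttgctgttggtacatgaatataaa
ph-p (promoter, intron, chrX:2137225-2137425): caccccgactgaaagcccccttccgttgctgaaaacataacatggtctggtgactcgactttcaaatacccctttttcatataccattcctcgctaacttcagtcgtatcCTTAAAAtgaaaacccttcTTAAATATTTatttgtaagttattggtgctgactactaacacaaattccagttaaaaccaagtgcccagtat
mRpS10 (promoter, outside genes, chr3R:15229443-15229643): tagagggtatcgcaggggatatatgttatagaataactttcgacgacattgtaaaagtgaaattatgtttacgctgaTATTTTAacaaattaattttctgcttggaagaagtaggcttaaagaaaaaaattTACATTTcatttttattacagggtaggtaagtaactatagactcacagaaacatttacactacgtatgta
CG11050 (intron, chr2L:6612603-6612803): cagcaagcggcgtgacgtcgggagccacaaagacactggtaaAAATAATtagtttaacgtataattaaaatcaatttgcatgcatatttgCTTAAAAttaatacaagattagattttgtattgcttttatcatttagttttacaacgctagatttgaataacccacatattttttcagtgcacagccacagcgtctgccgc
cbt (intron of ush, chr2L:480954-481154): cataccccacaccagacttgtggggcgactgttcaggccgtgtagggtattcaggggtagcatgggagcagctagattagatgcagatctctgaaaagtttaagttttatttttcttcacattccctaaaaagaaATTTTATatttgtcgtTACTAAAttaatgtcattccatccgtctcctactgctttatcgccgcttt
Lk6 (intron, chr3R:11760965-11761165): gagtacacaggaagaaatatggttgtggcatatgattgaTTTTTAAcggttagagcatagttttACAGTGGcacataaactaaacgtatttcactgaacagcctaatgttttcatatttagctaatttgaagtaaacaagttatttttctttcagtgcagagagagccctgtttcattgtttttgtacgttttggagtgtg
jp (intergenic, chr2L:9567408-9567608): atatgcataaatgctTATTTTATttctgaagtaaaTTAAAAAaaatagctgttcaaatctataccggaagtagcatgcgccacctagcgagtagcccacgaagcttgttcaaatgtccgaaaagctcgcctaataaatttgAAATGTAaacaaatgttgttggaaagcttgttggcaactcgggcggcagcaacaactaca
DNAlig3 (intergenic, chr3R:12403028-12403228): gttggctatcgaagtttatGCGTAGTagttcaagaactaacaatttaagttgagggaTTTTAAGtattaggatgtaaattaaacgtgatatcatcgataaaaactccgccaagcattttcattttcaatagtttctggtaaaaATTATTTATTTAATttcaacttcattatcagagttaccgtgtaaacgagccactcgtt
In these 8 windows the capitals fell mostly on runs of A and T. The marked exceptions were GCGTAGT in the DNAlig3 window and ACAGTGG in the Lk6 window, both to the left of the middle, and the lncRNA:CR31840 window held none of these 7-mers.

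Strong peaks lay at promoters more often than weaker ones. A summit within 500 bp of an annotated transcription start site (TSS) counted as a promoter summit, and there were 194 among the 320 strong peaks (60.6%, 95% interval 55.0 to 66.0%), against 1839 of 4692 weaker peaks (39.2%). The difference of 21.4 percentage points had a log2 odds ratio of 1.25 (Fisher's exact test, two-sided, adjusted exact p = 7.55e-13). Introns held 90 strong peaks (28.1%) against 43.1% of weaker ones (adjusted exact p = 4.66e-07, Fisher's exact test), and 28 strong peaks were intergenic (8.75% against 14.2%, adjusted exact p = 0.00642). The intergenic call was lost with a limit of 1000 (adjusted exact p = 0.0811) and with promoters of 200 bp (adjusted exact p = 0.159). The remaining 8 strong peaks (2.50%) lay in exons away from promoters, 2 of them in coding sequence, 2 in untranslated regions and 4 in noncoding exons. Of the 8 location features compared, 7 passed an adjusted p of 0.05, or 87.5%. Peaks of one experiment do not replicate it, so no p-value here covers the variation between collections of embryos.

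**Figure D1:**
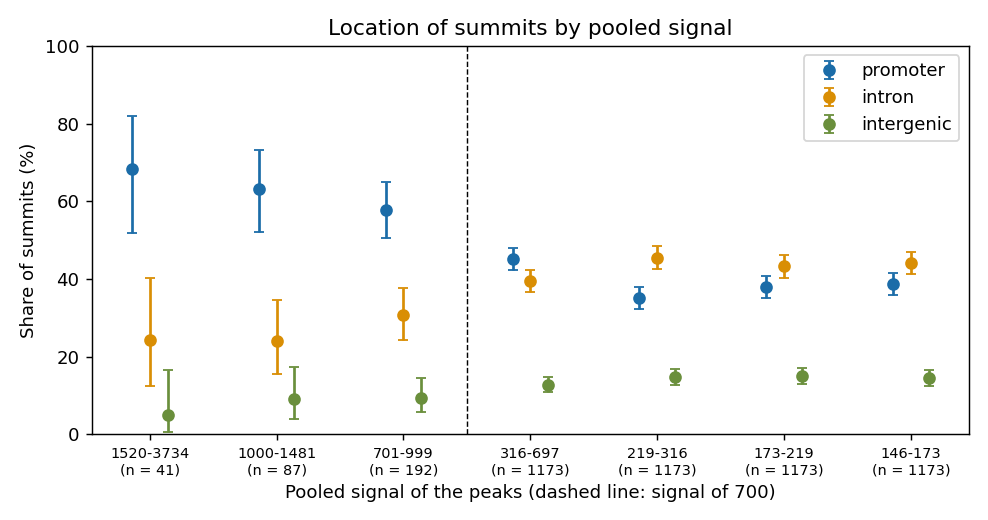
Share of summits (%, y axis) at promoters, in introns and between genes, for 7 classes of pooled signal from strongest to weakest (x axis); points are shares and bars exact 95% binomial intervals. Promoter summits made up 68.3%, 63.2% and 57.8% of the 3 classes of strong peaks and 35.1% to 45.1% of the 4 classes of weaker peaks.

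Within the strong peaks the promoter share was highest in the strongest class. It was 68.3% among the 41 peaks of signal 1500 or more (interval 51.9 to 81.9%), 63.2% among the 87 from 1000 to 1500 and 57.8% among the 192 from 700 to 1000, and these intervals overlapped. Among weaker peaks it was 45.1% in the strongest of 4 equal classes and between 35.1% and 38.6% in the other 3. Intronic peaks held 24.4%, 24.1% and 30.7% of the 3 strong classes.

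At promoters, strong peaks sat upstream of the TSS. Of the 194 promoter summits 160 (82.5%) were upstream of the nearest TSS on its own strand, against 72.8% of 1839 weaker ones (log2 odds ratio 0.80, Fisher's adjusted exact p = 0.0055). When strong peaks were picked by replicate 3 alone this call was lost (79.9% against 73.0%, adjusted exact p = 0.0591), as it was with a limit of 1000 (adjusted exact p = 0.116). The median position relative to the TSS, negative when upstream, was -135.5 bp in strong peaks and -95 bp in weaker ones, and 118 strong promoter summits (60.8%) lay 50 to 250 bp upstream, against 776 weaker ones (42.2%). A second gene on the opposite strand started within 500 bp upstream at 47 of 179 protein-coding promoter summits (26.3%), against 350 of 1643 weaker ones (21.3%), which did not pass (adjusted exact p = 0.128). Start sites of 2 or more genes lay within 500 bp of 64 strong promoter summits, so a strong peak cannot always be given to 1 gene.

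The strongest promoter peaks stood at genes of varied function. The summit at Ugalt, which encodes a UDP-galactose transporter, reached 2776 (replicate 2) and 963 (replicate 3), the highest in each list. At px, the plexus gene of wing vein patterning, the values were 2114 in replicate 2 and 853 in replicate 3, with the summit 210 bp upstream. The noncoding gene lncRNA:CR31840 had 1864 in replicate 2 and 957 in replicate 3, with the summit 25 bp downstream of its TSS. CG14100 had 1994 and 699 in replicates 2 and 3, and its summit was 94 bp upstream. At ph-p, which encodes the Polycomb group protein Polyhomeotic-proximal, the values were 1720 in replicate 2 and 565 in replicate 3. PNPase, the gene of a mitochondrial RNA-degrading enzyme, had 1643 in replicate 2 and 562 in replicate 3, with the summit in an untranslated region 83 bp downstream of a TSS. All 6 ranked 9 or better in replicate 2 and 18 or better in replicate 3.

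Intronic strong peaks were mostly in first introns. Among the 90, all within protein-coding hosts, 79 (87.8%, interval 79.2 to 93.7%) lay in the first intron of a transcript, against 1373 of 1985 weaker intronic peaks (69.2%, log2 odds ratio 1.62, Fisher's adjusted exact p = 0.000221). Their median distance to the nearest TSS was 1597 bp, against 2706 bp for weaker intronic peaks, and it ranged from 510 to 20116 bp. The host genes had a median length of 23847 bp (29034 bp for weaker peaks).

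CG11050 held the strongest intronic peak, with 2240 in replicate 2 and 883 in replicate 3, 1016 bp from its TSS and not in a first intron. The peak nearest to cbt, a zinc finger gene, lay in a first intron of ush, which encodes a cofactor of GATA factors, and had 2117 and 904 in replicates 2 and 3. Lk6, the gene of a kinase that acts on the cap-binding factor eIF4E, had 1614 in replicate 2 and 714 in replicate 3. An sbb (scribbler) peak had 1478 in replicate 2 and 842 in replicate 3 and was the most distant from any TSS of the 6, at 20116 bp. Trl, which encodes the GAGA-binding factor, had 1683 and 585, and CG32772 had 1571 and 595, in replicates 2 and 3. Each of these 6 ranked 16 or better in both replicates.

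Intergenic strong peaks were the fewest of these 3 classes. The strongest lay 758 bp upstream of jp, the junctophilin gene, with 1258 in replicate 2 and 625 in replicate 3. A peak 11962 bp from CG13323 had 1211 and 467, and one upstream of DNAlig3, a DNA ligase gene, had 1069 and 389, in replicates 2 and 3. The peaks nearest to CycB (cyclin B), zfh2 (a zinc finger homeodomain protein) and CG31668 had 1021, 845 and 886 in replicate 2 and 355, 494 and 395 in replicate 3. The zfh2 peak was the 1 strong peak on chromosome 4. Over the 28, the distance to the nearest TSS had a median of 1854 bp and a maximum of 11962 bp. Of all 126 strong peaks away from promoters, 104 (82.5%) had a TSS within 5 kb, against 2013 of 2853 weaker ones (70.6%).

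In exons away from promoters, the strongest peak, in lncRNA:Vinr, was in a noncoding exon and had 1420 in replicate 2 and 543 in replicate 3. A peak in coding sequence of Pde1c, a phosphodiesterase gene, had 985 and 435, and one in coding sequence of otp, a homeobox gene, had 792 and 342, in replicates 2 and 3. A noncoding exon within osa, a gene of the Brahma chromatin-remodelling complex, had 933 and 302, an untranslated region of baz, a cell polarity gene, had 670 and 254, and the heat-inducible lncRNA:Hsromega had 526 and 266.

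The strong peaks were chosen by pooled signal, which both replicates entered, so their replicate values are a description and were not tested. All 320 had a region in each replicate list within 200 bp, against 4607 of 4692 weaker peaks (98.2%). In replicate 2 the lowest signal was 432, the median 650 and the highest 2776. In replicate 3 the lowest was 145, the median 275 and the highest 963. Every strong peak had the higher value in replicate 2, and the replicates' scales cannot be equated because read depth is unknown. Of the 320, 299 were among the 320 strongest regions of replicate 2, 282 among those of replicate 3, 261 in both sets and 0 in neither. Their lowest rank was 419 in replicate 2 and 733 in replicate 3.

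**Figure D2:**
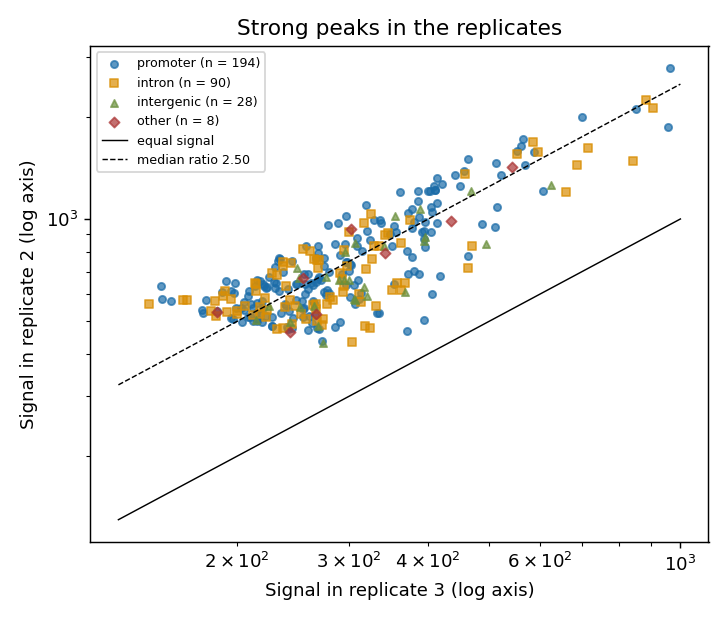
Signal of the 320 strong peaks in replicate 2 (y axis) against replicate 3 (x axis), both log axes in the authors' deposited signal units, with a marker for each location class. All points lie above the solid line of equal signal, scattered about the dashed line of the median ratio of 2.50.

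The ratio of replicate 2 to replicate 3 had a median of 2.50 and a range of 1.26 to 4.17, and for weaker peaks a median of 2.17 and a range of 0.312 to 12.4. The SD of the log2 ratio was 0.30 in strong and 0.59 in weaker peaks. Across the 320 strong peaks the replicates' signals had a Spearman rho of 0.704, and their log2 signals a Pearson r of 0.817. The peaks share both libraries and were cut at a pooled value, so these describe the list only. The lowest ratios were at Stat92E, the STAT transcription factor (468 in replicate 2, 370 in replicate 3, ratio 1.26), at RpL30, a ribosomal protein gene (505 and 394, ratio 1.28), and in CG9837 (433 and 304, ratio 1.43). The highest were at Lamtor3, a gene of the lysosomal Ragulator complex (633 and 152, ratio 4.17), in rdx, which encodes an adaptor of a ubiquitin ligase (563 and 145, ratio 3.87), and at rdgC, a phosphatase gene (581 and 152, ratio 3.81).

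The peaks nearest the limit of 700 differed little. Just above it were CG12316 with a pooled signal of 701.2 (496 in replicate 2, 204 in replicate 3), an intronic peak of gpp with 701.8 (473 and 231) and a peak near CG34342 with 702.9 (432 and 273). Just below it were an intronic peak of fz with 697.0 (528 and 172), one in bun with 696.1 (483 and 215) and one at magu with 694.0 (463 and 223). The signal had no gap at the limit. Strong peaks were also narrower as deposited, with a median width of 271 bp against 420 bp, and 311 of the 320 were under 420 bp, against 613 of 4692 weaker peaks. The deposited widths come from the same calls as the signal and were not tested.

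Strong peaks had neighbours. Another thresholded summit lay within 5 kb of 214 of 320 (66.9%), against 58.8% of weaker peaks (log2 odds ratio 0.49, Fisher's adjusted exact p = 0.00628). The call was lost when strong peaks were picked by replicate 3 alone (64.7% against 59.0%, adjusted exact p = 0.0591) and with a limit of 1000 (adjusted exact p = 0.116). With a distance of 1 kb the direction turned and the call was also lost (20.9% against 22.2%, adjusted exact p = 0.627). Another strong peak lay within 5 kb of 43 strong peaks (13.4%), with no rate for weaker peaks beside it. No difference in the share on a chromosome arm was detected: 0 of 6 passed (0%), 0 had an unadjusted p below 0.05 by Fisher's exact test, and the arm with the lowest p was 2L with 72 strong peaks (22.5% against 18.5%, adjusted exact p = 0.531).

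Strong peaks formed 7 groups of 3, each peak within 20 kb of the next, a description without a rate for weaker peaks. At the polyhomeotic locus on X, ph-p had summits with 1720 and 1200 in replicate 2 (565 and 361 in replicate 3), and the intergenic summit nearest to ph-d, the adjacent duplicate, had 835 (340). In the cbt and ush region on 2L the 3 summits had 660, 2117 and 569 in replicate 2 and 271, 904 and 314 in replicate 3. On 2L the jp group, with lncRNA:CR44149 and brwl, had 1258, 916 and 538 in replicate 2 and 625, 404 and 176 in replicate 3. Around CG5953 the values were 483, 545 and 504 in replicate 2 and 318, 199 and 214 in replicate 3. The sbb group had 1478, 589 and 782 in replicate 2 and 842, 281 and 290 in replicate 3. The group of LPCAT, lncRNA:CR45541 and Hex-A, a hexokinase gene, had 726, 520 and 561 in replicate 2 and 298, 265 and 238 in replicate 3. The group upstream of and in tara had 850, 662 and 633 in replicate 2 and 307, 295 and 295 in replicate 3. In 5 of the 7 groups the strongest summit by pooled signal was a promoter or intronic one, and in the jp and tara groups it was intergenic.

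Strong peaks had an A+T-rich middle. The G+C content within 100 bp of the summit had a median of 35.8%, against 37.3% for weaker peaks, and 130 strong peaks (40.6%) were above the median of all peaks, against 49.7% of weaker ones (log2 odds ratio -0.53, Fisher's adjusted exact p = 0.00357). Within 50 bp of the summit the shares were 34.4% and 50.4% (adjusted exact p = 9.58e-08). The call rested on replicate 2: picked by replicate 3 alone, 47.8% of strong and 49.2% of weaker peaks were above the median (adjusted exact p = 0.644). In 25 bp steps, the mean G+C content of strong peaks was 32.5% just left of the summit. It rose on both sides, to 45.4% at 151 to 175 bp to the left and 45.1% at 100 to 124 bp to the right. Weaker peaks went from 36.8% just left of the summit to 42.0% and 41.6% in the same left and right steps.

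**Figure D3:**
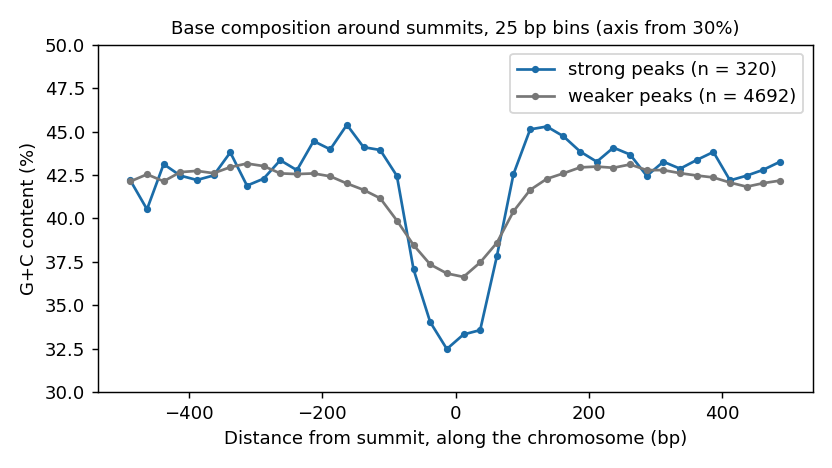
Mean G+C content (%, y axis, from 30%) in 25 bp bins by distance from the summit along the chromosome (x axis, bp), for the 320 strong peaks and the 4692 weaker peaks. The strong peaks fall to 32.5% beside the summit, and the weaker peaks have a shallower dip to 36.6%. The strong peaks reach 45.4% at 151 to 175 bp to the left and 45.1% at 100 to 124 bp to the right.

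The sequence CTACGCC and 7-mers that overlap it were more frequent in strong than in weaker peaks. Of all 7-mers, compared within 100 bp of the summit, 4 passed (0.0488% of those tested), all more frequent in strong peaks, and 392 had an unadjusted p below 0.05 by Fisher's exact test. CTACGCC was present in 22 of 320 strong peaks (6.88%) and 53 of 4692 weaker ones (1.13%), with a log2 odds ratio of 2.71 (Fisher's adjusted exact p = 4.81e-06). TACGCCC was in 20 (6.25% against 1.34%, adjusted exact p = 0.000584) and ACTACGC in 16 (5% against 1.28%, adjusted exact p = 0.0346). The fourth, AAATGTA, was A+T-rich and was in 62 (19.4% against 10.8%, adjusted exact p = 0.0346). Picked by replicate 3 alone, ACTACGC (adjusted exact p = 0.489) and AAATGTA (adjusted exact p = 0.459) did not pass. Picked by replicate 2 alone, ACTACGC did not pass either (adjusted exact p = 0.0806), while AAATGTA did (adjusted exact p = 0.0142). ACTACGC passed in none of the alternatives run, with adjusted exact p from 0.0806 to 1.00, and AAATGTA was also lost with limits of 500 and 1000 (adjusted exact p = 0.197 and 0.0825). AAATGTA did not pass within 150 or 200 bp of the summit (Fisher's adjusted exact p = 0.156 and 0.294), at promoter peaks alone (0.315) or away from promoters. TACGCCC was lost with a limit of 500 (Fisher's adjusted exact p = 0.571), within 50 bp of the summit and away from promoters. As background, CTACGCC was found in 0.935% of 24053 windows of the same length at pooled regions over 500 bp from any thresholded summit and in 1.01% of 19252 windows centred on TSSs of protein-coding genes. AAATGTA was in 7.87% and 7.0% of those windows.

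The CTACGCC sites of some of the strongest peaks are shown because CTACGCC carries this difference. Each line is 31 bp of dm6 with the 7-mer in capitals, in the orientation in which the 7-mer reads CTACGCC, named by the gene of the nearest TSS.
Ugalt (chrX:2703951-2703981, plus strand): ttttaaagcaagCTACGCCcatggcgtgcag
CG14100 (chr3L:19590668-19590698, plus strand): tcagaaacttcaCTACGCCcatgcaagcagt
Tlk (chrX:3742109-3742139, minus strand): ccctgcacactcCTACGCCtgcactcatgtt
CG9663 (chr2L:3302220-3302250, plus strand): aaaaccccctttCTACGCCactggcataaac
CHMP2B (chr3L:5139555-5139585, plus strand): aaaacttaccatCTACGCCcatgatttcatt
CG5611 (chr3R:27636068-27636098, minus strand): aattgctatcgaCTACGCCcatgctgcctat
amon (chr3R:26714438-26714468, plus strand): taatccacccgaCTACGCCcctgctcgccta
CG3552 (chr3L:9457702-9457732, minus strand): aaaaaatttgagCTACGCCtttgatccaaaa
moody (chrX:2050221-2050251, minus strand): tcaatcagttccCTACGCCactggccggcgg
CG16753 (chr3L:3060868-3060898, plus strand): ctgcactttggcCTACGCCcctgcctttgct
Some bases beyond the 7-mer recurred as well. Counting the first C of CTACGCC as position 1, position 10 was T in 77.8% and position 11 was G in 81.5% of the 27 copies within 200 bp of strong summits. In the 108 copies near weaker summits the shares were 44.4% and 52.8%. At the other positions printed around the 7-mer, the most frequent base was in at most 51.9% of the copies near strong summits.

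Most copies lay on 1 side of the summit. When the sequence reads CTACGCC from left to right, 23 of the 27 copies lay to the right of the summit and 4 to the left, and 20 of the 23 lay 50 to 150 bp from it. The count was 34.4 copies per 1000 strong peaks in the 25 bp step at 75 to 99 bp, against 2.13 per 1000 weaker peaks. Of the copies at weaker peaks, 67 lay to the right and 41 to the left. The reading direction was chosen by script as the one with most copies to the right in strong peaks, so the excess on that side in strong peaks was not tested.

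**Figure D4:**
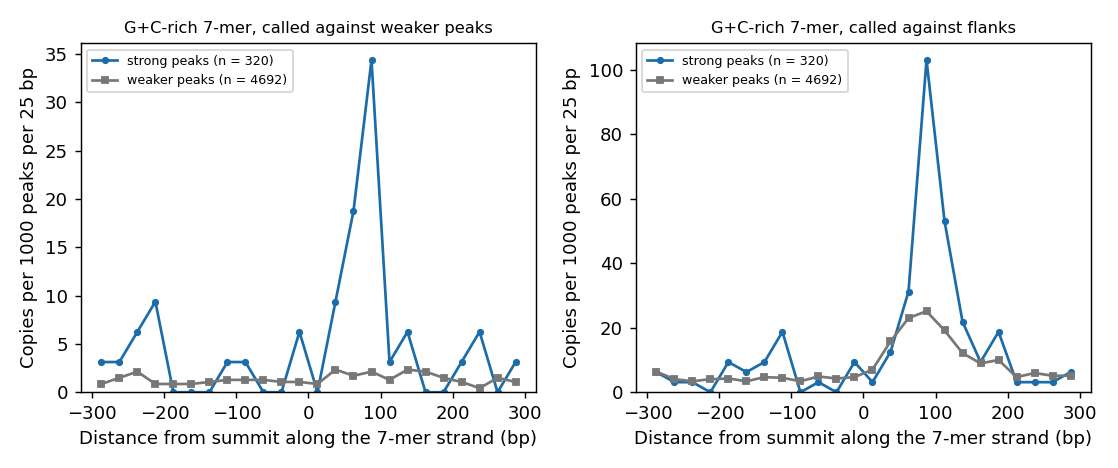
Copies per 1000 peaks per 25 bp (y axis) of the 7-mer that differed most between strong and weaker peaks (left) and of the G+C-rich 7-mer with the lowest p against flanking DNA (right), by signed distance from the summit along the strand on which the 7-mer is read (x axis, bp). In strong peaks both are highest at 75 to 99 bp to the right, with 34.4 and 103 copies per 1000 peaks against 2.13 and 25.1 in weaker peaks. Each 7-mer is read in the direction with most copies to the right in strong peaks.

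The CTACGCC group had its highest shares in the strongest class and at promoters, differences that were not tested. At least 1 of the 3 overlapping 7-mers was in 8 of the 41 peaks with signal of 1500 or more (19.5%), 11 of 87 from 1000 to 1500 (12.6%) and 17 of 192 from 700 to 1000 (8.85%), and in 2.30% to 3.41% of the 4 classes of weaker peaks. These 7-mers were combined after their values were seen, so their joint count of 36 strong peaks (11.3%) is a description. It was in 28 of 194 strong promoter peaks (14.4%, weaker 3.53%), 7 of 90 intronic peaks (7.78%, weaker 2.52%) and 1 of 28 intergenic peaks. The strong peaks at Ugalt, px, CG14100, elav (the neuronal RNA-binding protein), RpL24, mRpL23 and Hsp27 each held one. Within promoter peaks alone, CTACGCC was in 9.79% of strong and 1.36% of weaker peaks (Fisher's adjusted exact p = 2.39e-05). Away from promoters it was in 2.38% and 0.981% (adjusted exact p = 1.00). With a limit of 500 in place of 700 the CTACGCC call was lost (3.33% against 1.22%, adjusted exact p = 0.193). All 22 peaks with CTACGCC among the 660 so selected were ones of 700 or more.

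Against their left flanking DNA, strong summits held more A+T-rich 7-mers and some G+C-containing 7-mers, none of the CTACGCC group. In a comparison with an equal window centred 500 bp to the left, 15 7-mers passed (0.183% of those tested), all more frequent at the summit, and 501 had an unadjusted p below 0.05 by the exact McNemar test. Of the 15, 9 had no C or G and 12 had at most 1. CTTAAAA had the lowest p, with 47 peaks holding it at the summit only and 9 at the flank only (adjusted exact p = 0.00211). TTAAATA was at the summit only in 63 and at the flank only in 19, ATTTAAT in 68 and 24, ATATTAA in 57 and 18, ATAAAAT in 60 and 20, and TTAAAAA in 73 and 28, with adjusted exact p from 0.0047 to 0.00947. TTTATAA (38 and 8), TACTAAA (29 and 4), CACTGTG (37 and 8) and CCACTGT (38 and 7) had adjusted exact p from 0.00852 to 0.0126. Of the remaining 5, CCCACTG was at the summit only in 22 and at the flank only in 2, ATTATTT in 68 and 26, TAAAATA in 61 and 23, AAATATT in 63 and 25 and TTAGTAT in 18 and 1, with adjusted exact p from 0.0129 to 0.0417. Against the right flank 26 passed, and 7 passed against both. The count rested on the choice of peaks: picked by replicate 3 alone 2 passed, both among the 15, picked by replicate 2 alone 35 passed, 14 of them among the 15, and with a limit of 1000 (128 peaks) 0 passed.

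CCACTGT overlaps CACTGTG, and CCCACTG, also called, overlaps both. CCACTGT was within 100 bp of 40 strong summits (12.5%) and 359 weaker ones (7.65%), which did not pass between the classes (Fisher's adjusted exact p = 0.647). It was in 3.62% of the pooled windows away from thresholded summits and 2.28% of TSS windows. Wider windows, added after the data were seen, gave a call for it. Within 150 bp it was in 61 strong peaks (19.1% against 10.7%, adjusted exact p = 0.0284), and within 200 bp in 70 (21.9% against 12.5%, adjusted exact p = 0.00704). Sites of some of the strongest peaks follow as for CTACGCC, with CCACTGT in capitals. Peaks at ph-p (pooled signal 1544), MFS10 (1389) and near CycB (1376) also held CCACTGT within 100 bp and are left out. The Trl and PAN3 sites printed lay 119 and 104 bp from the summit, beyond the 100 bp of the first count.
Lk6 (chr3R:11761017-11761047, minus strand): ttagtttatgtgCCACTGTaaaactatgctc
Trl (chr3L:14759387-14759417, minus strand): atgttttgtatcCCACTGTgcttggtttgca
CenG1A (chr2L:13835531-13835561, plus strand): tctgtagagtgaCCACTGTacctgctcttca
CG1635 (chr3R:31588619-31588649, plus strand): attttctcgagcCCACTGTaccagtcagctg
RluA-1 (chr2L:10474597-10474627, plus strand): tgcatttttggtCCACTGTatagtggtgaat
bves (chrX:21054407-21054437, plus strand): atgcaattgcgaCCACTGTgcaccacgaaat
PAN3 (chr3L:3081500-3081530, plus strand): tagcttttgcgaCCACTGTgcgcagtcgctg
NFAT (chrX:13640584-13640614, plus strand): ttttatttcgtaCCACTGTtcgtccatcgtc
Like CTACGCC, these sites stood to 1 side of the summit. Read as CCACTGT, 81 of the 99 copies within 200 bp of strong summits lay to the right and 18 to the left, and at weaker summits 569 lay to the right and 160 to the left. The reading direction was again the one with most copies to the right in strong peaks, so the side there was fixed by that choice and was not tested. The step at 75 to 99 bp held 103 copies per 1000 strong peaks and 25.1 per 1000 weaker peaks. The base after the 7-mer was G in 61.6% and the next C in 63.6% of copies near strong summits. In all, 3 strong peaks held both this 7-mer and one of the CTACGCC group within 100 bp.

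Other 7-mers with low p between strong and weaker peaks did not pass. AACCCCC was in 17 strong peaks (5.31% against 1.66%) and CTTAAAA in 51 (15.9% against 8.80%), each with a Fisher's exact adjusted p of 0.115. AACCCTG was in 14 (4.38% against 1.21%, adjusted exact p = 0.142), ATGTATT in 40 (12.5% against 6.48%, 0.144), GTATTTA in 47 (14.7% against 8.14%, 0.151) and GCAACCC in 17 (5.31% against 1.79%, 0.151). AACCCTG, read in the direction with most copies to the right, had 19 copies to the right and 4 to the left within 200 bp of strong summits. That side followed from the chosen direction and was not tested.

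GAGA repeats, sites of the GAGA factor encoded by Trl, were sparse at the middle of strong peaks and dense on their shoulders. GAGAG within 100 bp was in 82 strong peaks (25.6%) and 1305 weaker ones (27.8%, Fisher's adjusted exact p = 0.757). Within 50 bp it was in 7.81% of strong and 14.1% of weaker peaks (adjusted exact p = 0.019), and within 200 bp, added after the data were seen, in 59.4% and 48.8% (adjusted exact p = 0.00503). The 7-mer CTCTCTC had 1.56 copies per 100 strong peaks within 49 bp of the summit and 29.4 from 100 bp up to 150 bp, against 5.50 and 8.59 at weaker peaks. A repeat can hold several copies in 1 peak, so these are not shares of peaks. It was in 86 strong peaks within 200 bp (26.9% against 13.3%, adjusted exact p = 6.04e-06), and CGCTCTC in 75 (23.4% against 11.5%, adjusted exact p = 3.75e-05).

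For known core promoter and factor sequences no difference between strong and weaker peaks passed within 100 bp of the summit. Of 19 consensus sequences tested 0 passed (0%), and 5 had an unadjusted p below 0.05 by Fisher's exact test. These 5 were the initiator core TCAGT (29.1% against 35.5%), the DNA replication-related element TATCGATA (3.44% against 1.58%), the TATA box TATAAA (37.5% against 31.4%), the motif 7 core CATCNCT (10.3% against 7.08%) and the CA repeat CACACAC (6.25% against 9.59%), with adjusted exact p from 0.161 to 0.180. Each was counted on both strands. TATAAA lies within TTTATAA read on the other strand, and GAGAG within CTCTCTC. Among promoter peaks alone, TATAAA was in 41.8% of strong and 31.8% of weaker peaks (adjusted exact p = 0.0387), CACACAC in 3.61% and 10.1% (adjusted exact p = 0.0173) and GAGAG in 20.1% and 31.0% (adjusted exact p = 0.0173). The other 13 sequences, besides GAGAG, were those of BEAF-32, Pho, Zelda, GATA factors, CTCF, AP-1, CREB, E-boxes, Su(H), homeodomains, motif 1 and an A tract, with adjusted exact p from 0.303 to 1.00. Away from promoters TCAGT was in 23.0% of strong and 36.2% of weaker peaks (adjusted exact p = 0.0431). Within 200 bp, added after the data were seen, the motif 5 E-box CAGCTG passed besides GAGAG (26.6% against 18.9%, adjusted exact p = 0.012).

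At least 1 strong summit lay at the promoter of 235 of 13945 protein-coding genes (1.69%), and a further 1828 (13.1%) had only weaker ones. For 34 gene lists the shares are given beside these, without a test, since neighbouring genes share peaks and long genes have more TSSs. A strong peak was at the promoter of at least 1 gene in 19 lists. With promoters of 200 bp, counts given in the following paragraphs fell from 4 to 2 for translation factors, from 4 to 3 for mitochondrial ribosomal proteins, from 2 to 1 for the Polycomb and trithorax list and from 2 to 0 for neural genes. They fell from 1 to 0 for ribosome biogenesis, oxidative phosphorylation, JAK-STAT, actin and adhesion genes, and the other 10 lists kept theirs.

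Cytoplasmic ribosomal protein genes, which encode the subunits of the ribosome, had a strong peak at 18 of 93 promoters (19.4%) and only weaker ones at a further 50 (53.8%). RpL7 had 968 in replicate 2 and 487 in replicate 3, RpS27 829 and 395, RpL14 687 and 372, and RpL24 641 and 353. The other 14 had pooled signals from 706 to 936. The share of 19.4% stands beside 1.69% of all protein-coding genes, untested, and none of the 18 was among the 41 peaks of signal 1500 or more.

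Other parts of protein synthesis had a few each, given beside 1.69% of all protein-coding genes and not tested. Translation factor genes had 4 of 56 (7.14%), namely eIF4EHP with 980 in replicate 2, eIF6 with 1017, eEF1gamma with 704 and eIF1 with 437. The eIF4EHP summit was 245 bp from its TSS and 131 bp from that of CG18428. The eIF6 summit was 117 bp from its TSS and 88 bp from that of asRNA:CR45928. The eIF1 peak had the same pooled signal of 712.5 as that of RpL28, whose promoter it shares. Mitochondrial ribosomal protein genes had 4 of 73 (5.48%), mRpS23, mRpS10, mRpL41 and mRpL23, with 1585, 1507, 1385 and 753 in replicate 2. The mRpS23 summit was 403 bp from its TSS and 89 bp from that of CenG1A, a GTPase-activating protein gene of the growth list. The ribosome biogenesis list had Ns2 (1 of 19), oxidative phosphorylation ND-ASHI (1 of 86) and the proteasome list 0 of 32. The Ns2 summit was 205 bp from its TSS and 71 bp from that of POSH.

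**Figure D5:**
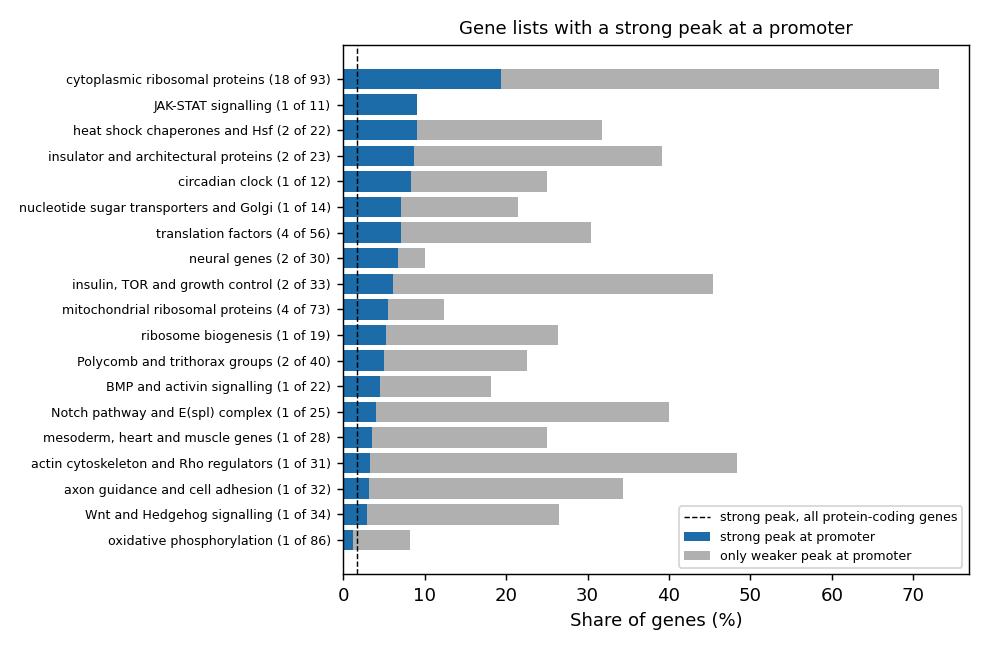
Share of the genes of each list (%, x axis) with a strong peak at the promoter (blue) and with only a weaker peak there (grey, stacked), for the 19 lists with at least 1 strong peak; the dashed line is the share of all protein-coding genes with a strong peak, 1.69%. Cytoplasmic ribosomal protein genes have the longest blue bar, 19.4%.

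Some genes of the chromatin lists had strong peaks at promoters, and some in introns. In the Polycomb and trithorax list, ph-p and brm (553 in replicate 2), the ATPase of the Brahma complex, had one at the promoter (2 of 40, 5%), and Trl, trx (896) and the region near ph-d (835) had one elsewhere. The brm summit was 141 bp from its TSS and 125 bp from that of Arl1. The insulator and architectural list had Chro, the chromodomain protein Chromator, with 1460 in replicate 2 and 512 in replicate 3, and Cp190, a cofactor of insulator proteins, with 539 and 205 (2 of 23, 8.70%). The ZAD zinc finger genes, relatives of CG6813, had 0 of 23 with a strong peak and 5 (21.7%) with only weaker ones. Over all protein-coding genes these shares were 1.69% and 13.1%, and no count of these lists, including the 0, was tested.

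Signalling and growth lists had 0 to 2 strong promoter peaks each, and some had more elsewhere. Those at promoters included the co-repressor gene gro of the Notch list (512 in replicate 2, 196 in replicate 3), the kinase gene sgg of the Wnt and clock lists (601 and 256), shn of the BMP list (602 and 406) and Stat92E. The growth list had CenG1A and REPTOR, a transcription factor downstream of TOR (765 and 266), and its strong peaks elsewhere were in Lk6, in InR, the insulin receptor gene (618 and 351), and near foxo (672 and 276). The EGFR, FGFR and Ras list had 0 of 30 promoters with a strong peak. Intronic strong peaks in or nearest to its genes numbered 5, S (Star, 716 in replicate 2), Raf (818), aos (593), vn (523) and edl (531). The ecdysone list had 0 of 20 promoters and 4 intronic peaks, in Hr3 (811), Hr4 (694), Eip75B (489) and ImpL2 (551). For peaks outside promoters no share over all protein-coding genes was computed, and neither these counts nor the counts of 0 were tested.

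Developmental and tissue lists had 0 to 2 strong promoter peaks each, with shares of 9.09% for heat shock, 6.67% for neural and 3.57% for mesoderm genes beside 1.69% of all protein-coding genes. Heat shock genes had Hsp83 (1210 in replicate 2, 608 in replicate 3) and Hsp27 (648 in replicate 2) of 22, neural genes elav (1051 and 405) and Sox14 (728 and 274) of 30, and mesoderm genes tin, the heart factor (507 and 215), of 28. Toll-7 of the adhesion list had 913 and 391, and the actin list had px, a gene known for wing veins and not for actin. Segment polarity genes had 0 of 14, Hox and homeotic complex genes 0 of 11, and maternal, gap and pair-rule genes 0 of 24, counts that were not tested against 1.69%, with intergenic strong peaks nearest to slp2 (668 in replicate 2) and croc (484). Chemoreceptor genes (179) and cuticle protein genes (117) had 0 strong and 0 weaker peaks at promoters. In all, 15 lists had no strong promoter peak, and 13 of these had a weaker one.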

How the data were processed

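The authors deposited peak lists in dm6 for each replicate, for the pooled replicates and after an irreproducible discovery rate step, with a signal value per peak as their caller gave it. A deposited summit offset (unit: other) was added to the start to give the summit. For the aligner, caller and cutoff nothing is given in the sources used here. Lists of dm3 were not used, except that 311 of 3963 thresholded dm3 peaks also reached 700. The lists hold no counts, so depth is unknown. Gene models were BDGP6.54 without transposable elements, on arms X, 2L, 2R, 3L, 3R and 4, and sequence was the RefSeq copy of dm6. No peak ran past the end of an arm.

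Replicate regions were matched within 200 bp of the summit. Strong and weaker peaks were compared with Fisher's exact test over all 5012 peaks, and strong summits with their flanks by the exact McNemar test over all 7-mers joined with their reverse complements. Adjustment was by Benjamini-Hochberg in each family, with a threshold of 0.05. Tests were two-sided, and intervals are exact binomial (Clopper-Pearson) and cover counting error only. Log2 odds ratios had 0.5 added to each cell. Code was tested on simulated sequences. Python 3.11.15, SciPy 1.17.1, NumPy 2.4.6 and pandas 2.3.3 were used.

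The peaks, gene lists and consensus sequences were chosen with earlier results of these data known. Peaks named were the 6 strongest of each location class, the 3 on each side of the limit, up to 4 per gene list, groups of 3 or more within 20 kb, and the 3 highest and 3 lowest replicate ratios. The 10 7-mers of lowest p in each comparison and each consensus sequence that passed were named. Genes with strong peaks outside promoters, sites of the 2 recurring 7-mers and the remaining 7-mers called within 100 bp were named after their values were seen. Windows were printed out to 100 bp from the summit, the tested length, in place of the 50 bp first planned. Alternatives were limits of 500 and 1000, 1 replicate alone, other promoter, neighbour and matching distances, other windows, promoter or other peaks alone, and the other flank. For 1 replicate alone, the thresholded peaks were ranked by that replicate's signal and the highest 320 taken. The peaks and summits themselves still came from the list made with both replicates.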

Additional observations from a re-analysis of the deposited data

How the results depend on the processing

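Promoter, intron and first-intron shares kept their direction and call in all alternatives run, and the divergent share never passed. With a limit of 1000 the intergenic (log2 odds ratio -0.88), upstream (0.69) and neighbour (0.44) calls were lost, and with promoters of 200 bp the intergenic call (-0.32). Neighbours within 1 kb reversed (-0.10). With 1 replicate left out of the ranking, the upstream value ran from 0.54 to 1.11 and the neighbour value from 0.35 to 0.52. The G+C value then ran from -0.71 to -0.079, and each of these calls was lost without replicate 2. The count of 4 7-mers against weaker peaks became 1 with a limit of 500, 2 with 1000, 2 within 50 bp of the summit, 7 within 150 bp and 12 within 200 bp (both added after seeing the data), 0 away from promoters and 2 to 4 with a replicate left out. CTACGCC itself passed in all but the limit of 500, the 50 bp reach and the peaks away from promoters. The count of 15 against flanks became 77 with a limit of 500 (660 peaks), 0 with 1000 (128 peaks), 7 within 50 bp, 26 with the right flank, and 2 to 35 with a replicate left out. Consensus sequences passing rose from 0 to 1 within 50 bp, 2 within 200 bp (added), 3 at promoters and 1 away from them. Promoters of 200 bp left 154 of the 235 genes. The number of strong peaks with a region in both replicates stayed at 320. The causes of these shifts were not tested, and depth, which limits all peak lists, is unknown. No paired analysis was possible because there is 1 group.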
